A study of Mus musculus with 15 samples.

Results

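The mouse mitochondrial genome contributed 37 of the 44674 genes in the count table, chosen as those whose symbol starts with mt-. They comprised 13 protein-coding genes, 2 rRNA genes and 22 tRNA genes, all annotated on chromosome M of GRCm38. Bulk RNA-seq had been performed on 15 libraries of 8 conditions from cultures of bone marrow (BM) and lung. Endothelial cells (ECs) were traced with a tamoxifen-inducible Tie2-CreERT2 transgene, in which the Tek promoter drives the recombinase, and a Rosa26-tdTomato reporter. The mitochondrial transcripts were followed over these conditions and over the batches within the passaged cells.

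P0 Emcn+ and P0 Emcn- BMECs were tdTomato+ CD45- cells of whole BM cultures, sorted on day 14 with or without surface endomucin (Emcn), a sialomucin. The donor mice carried both alleles (Tie2-CreERT2;Rosa26-tdTomato), were given tamoxifen and were 4 to 6 months old. The lung libraries came from Emcn- ECs of lung cultures by the study's methods, and P1, P2, P3 and P4 were serial passages of Emcn- BMECs. BM MSC were mesenchymal stromal cells marked by Osx-Cre;Rosa26-tdTomato. By the study's methods they were grown in a mesenchymal medium and sorted after their initial culture, while the BMECs and lung cells were grown in an endothelial medium. The labels give every library the genotype WT. P4 had 1 library and each other condition 2, which the methods describe as biological. The study's reporting summary describes independent cultures as begun from different animals, and the labels tie no library to a particular animal. The labels name 4 batches. Batch d held replicate 1 and batch a replicate 2 of both P0 populations and of lung. Batch b held replicate 1 of P1 to P3 and P4, and batch c held replicate 2 of P1 to P3 together with BM MSC. Batches a and d thus had no condition in common with batches b and c, and condition and batch cannot be told apart in comparisons across that line.

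Library totals ran from 9914620 to 39718807 counts. The cell labels were checked against marker lists, summed as CPM (counts scaled to a library total of 1000000). The 9 endothelial markers summed to 10186 to 12227 CPM in P0 Emcn+ and to 42.2 to 585 CPM in all other libraries. Cdh5, the VE-cadherin gene, was at 5118 to 6222 CPM in P0 Emcn+, 6.35 to 119 CPM in P0 Emcn-, and 0.0564 to 2.33 CPM in P1 to P4. The other endothelial markers did not all follow Cdh5 over the passages. Kdr was at 1.82 to 14.9 CPM in P0 Emcn- and 7.96 to 30.1 CPM in P1 to P4, and Tek at 20.3 to 49.4 CPM and 15 to 40.3 CPM. The 10 mesenchymal markers summed to 246 to 307 CPM in P0 Emcn+ and to 4573 to 21704 CPM elsewhere. The markers thus went against the endothelial label of the Emcn- libraries, which are named here by their labels only. Macrophage markers (10 genes) summed to 817 to 1066 CPM in P0 Emcn+, 260 to 289 CPM in P0 Emcn- and 10.1 to 259 CPM in P1 to P4, and erythroid markers (7 genes) to at most 0.431 CPM. In bulk RNA, fewer cells of a type and less RNA per cell cannot be told apart.

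Mitochondrial DNA is transcribed from both strands as long precursors. The tRNAs that lie between most of the other genes are cut out, which frees the mRNAs and rRNAs. The encoded proteins are subunits of complexes I, III, IV and V of oxidative phosphorylation, made on the mitochondrial ribosome from the encoded rRNAs and tRNAs. The remaining subunits, the transcription machinery and the ribosomal proteins are nuclear genes. All but 1 of the 13 mRNAs are read from the plus strand. The exception is mt-Nd6, annotated at chrM:13552-14070 on the minus strand, whose end lies across that of mt-Nd5 at chrM:11742-13565. Of the tRNA genes, 14 lie on the plus and 8 on the minus strand, and they are 59 to 75 bases long.

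Genes crowd on this chromosome, and reads of overlapping genes cannot be assigned with certainty. The largest overlap between neighbours on 1 strand joins both complex V subunits, mt-Atp8 at chrM:7766-7969 and mt-Atp6 at chrM:7927-8607, over 43 bases. The whole of mt-Atp8 is shown because it had the largest batch difference among the mRNAs, and the tRNAs mt-Tw (tryptophan) and mt-Tl1 (leucine) because they held most tRNA counts. Sequences are GENCODE M21 transcripts of GRCm38, 5′ to 3′, and capitals mark bases annotated to the neighbouring gene as well.
mt-Atp8: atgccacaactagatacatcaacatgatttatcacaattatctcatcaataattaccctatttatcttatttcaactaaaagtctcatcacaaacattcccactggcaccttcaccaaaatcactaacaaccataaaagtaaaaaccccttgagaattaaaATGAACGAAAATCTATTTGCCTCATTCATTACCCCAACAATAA
mt-Tw: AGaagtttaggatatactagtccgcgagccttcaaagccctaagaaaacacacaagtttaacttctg
mt-Tl1: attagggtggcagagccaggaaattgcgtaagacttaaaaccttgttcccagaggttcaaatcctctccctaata

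A second source of uncertainty lies in the nucleus. A run of 7 pseudogenes on chromosome 1 of GRCm38, all on the minus strand, matches mt-Co1, mt-Co2, mt-Atp6, mt-Co3, mt-Nd3, mt-Nd4l and mt-Nd4 almost base for base. The copies of mt-Co2, mt-Atp6, mt-Co3, mt-Nd4l and mt-Nd4 were 100% identical over the copy. The copy of mt-Co1 (Gm29216, chr1:24615706-24616197) had 6 mismatches in 492 bases, and that of mt-Nd3 (Gm28438, chr1:24612775-24613119) had 1 in 345. That change, T3C counted from the first base of mt-Nd3, is in capitals in the first 60 bases of both, which shows how little sequence separates the pair.
mt-Nd3: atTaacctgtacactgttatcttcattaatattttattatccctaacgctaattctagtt
Gm28438: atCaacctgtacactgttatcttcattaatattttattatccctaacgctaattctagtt

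The count table gave many reads to these copies, and in unequal amounts. Counts on the 7 copies together were 5.75% to 11.9% of the mRNA and copy counts in the 6 P0 and lung libraries. They were 18.2% and 16.3% in BM MSC and 13.3% to 17.3% in P1 to P4. Gm28438 took 69% to 86.9% of its joint counts with mt-Nd3 in P0 and lung libraries and 80.9% to 93.5% in P1 to P4, so mt-Nd3 itself was the smaller part of the pair in every library. Gm28439, the copy of mt-Nd4, took 0% to 7.3% in P0 and lung libraries, 31.3% and 32.4% in BM MSC, 29.4% to 30.5% in batch b of P1 to P3, and 13.9% to 16.2% in batch c. Gm28661, the copy of mt-Co2, went the other way, with 2.98% to 12.3% in P0 and lung libraries and at most 0.0431% in P1 to P4. The split thus differed between batches, so every comparison was also fitted with the counts of the copy added to the gene, and what changed is given beside each result.

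**Figure D1:**
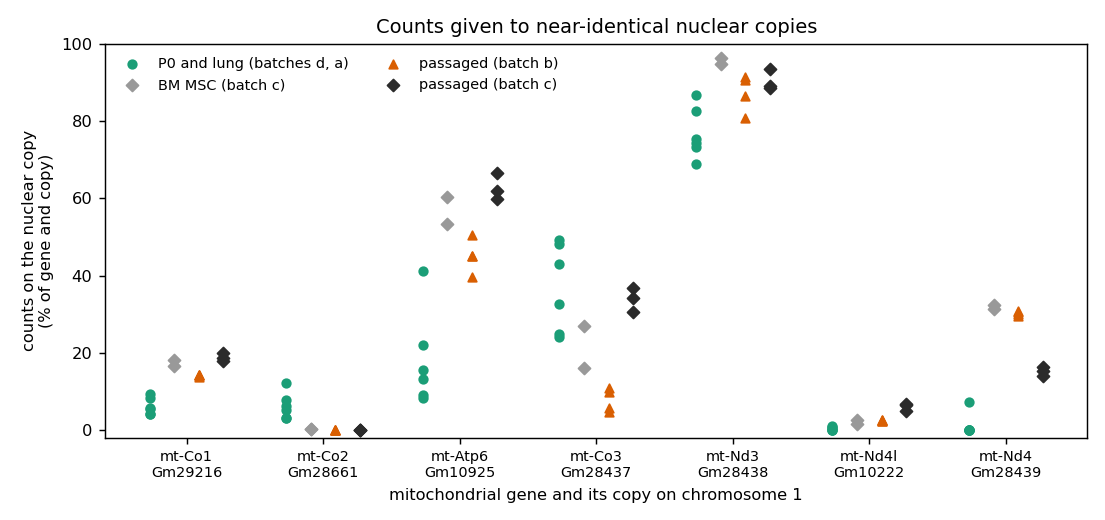
Share of counts given to the nuclear copy (% of gene plus copy, vertical axis) for the 7 mitochondrial genes with a near-identical copy on chromosome 1, 1 point a library, with symbols for P0 and lung, BM MSC and both batches of passaged cells. The copy of mt-Nd4 has at most 7.3% in P0 and lung libraries and 29.4% to 30.5% in batch b of P1 to P3, and the copy of mt-Nd3 has 69% or more in every library.

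Mitochondrial transcripts took 2.45% to 9% of the counts of a library. The share was 3.45% and 2.45% in the 2 P0 Emcn+ libraries, 2.72% and 3.01% in P0 Emcn-, 5.60% and 3.26% in lung, and 3.36% and 4.13% in BM MSC (replicate 1 first, here and throughout). It was 8.00% and 5.99% in P1, 9% and 5.44% in P2, 7.00% and 5.16% in P3, and 6.32% in the single P4 library (Wilson 95% interval 6.31% to 6.32%, counting error only). Every passaged library thus lay above every P0 and BM MSC library, while the lung library of batch d lay above 2 of the passaged libraries of batch c. Means were 2.95% ± 0.709 (SD, n = 2) for P0 Emcn+, 2.86% ± 0.201 (SD, n = 2) for P0 Emcn-, 4.43% ± 1.65 (SD, n = 2) for lung, 3.74% ± 0.54 (SD, n = 2) for BM MSC and 6.99% ± 1.42 (SD, n = 2) for P1. With the copies added, the means of P0 Emcn- and P1 were 3.15% ± 0.334 (SD, n = 2) and 8.23% ± 1.49 (SD, n = 2). These sums over the members are given without a test. Shares and CPM are relative to library totals, whereas fitted fold changes below also use TMM factors, 1.08 and 1.09 in P0 Emcn- and 0.957 and 0.987 in P1.

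The classes did not move by like amounts. The 13 mRNAs made up nearly all of the share, at 2.34% to 8.71% of library counts. The 2 rRNAs held only 0.0865% to 0.281%, or 2.75 to 5.91 counts for each 100 counts on the mRNAs. Whether the libraries were selected for polyadenylated RNA or depleted of rRNA is not given in the sources used here. The 22 tRNAs summed to 0.461 to 2.32 CPM in P0 and lung libraries, 4.07 and 5.78 CPM in BM MSC, and 14.4 to 27.6 CPM in P1 to P4. From P0 Emcn- to P1 the mean ratio was 2.47 for mRNAs, 1.74 for rRNAs and 26.4 for tRNAs.

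**Figure D2:**
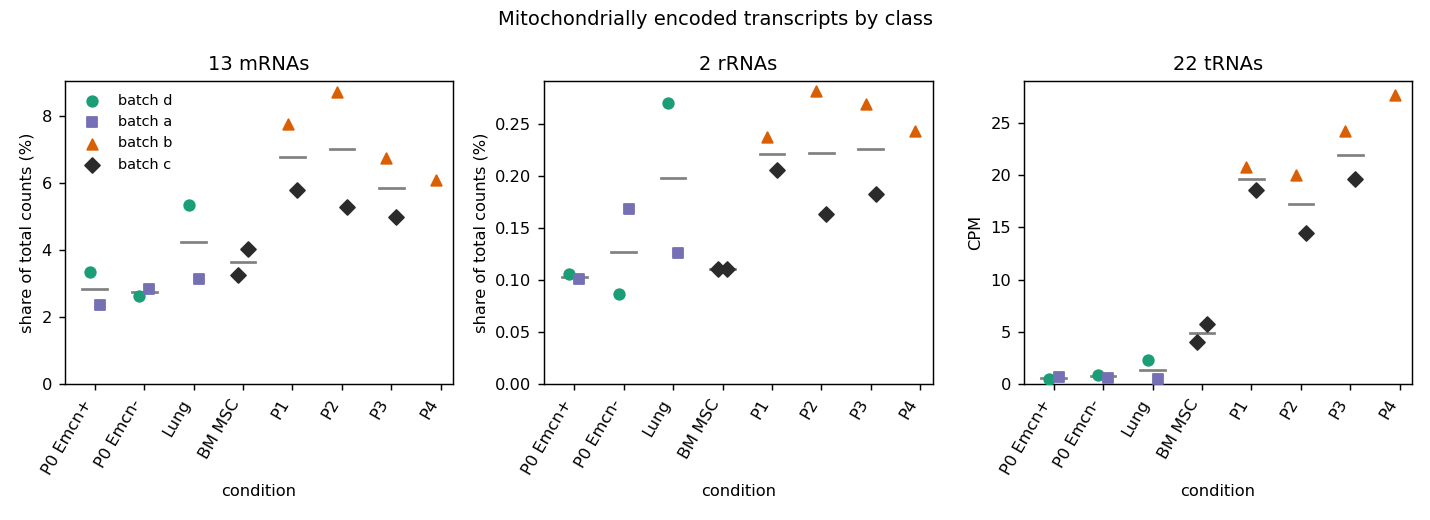
Mitochondrial mRNAs and rRNAs as a share of total counts (%) and tRNAs in CPM for each library, by condition (horizontal axis), with batch shown by colour and shape and grey lines for the mean of conditions with 2 libraries. Batch b lies above batch c in P1, P2 and P3 in all 3 classes, and the tRNAs of P1 to P4, at 14.4 to 27.6 CPM, lie above those of every other library.

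Among the members, mt-Co1 was the most abundant mRNA. It encodes the catalytic core subunit of complex IV (cytochrome c oxidase). With the copy added it made up 45.8% and 45.2% of mitochondrial mRNA counts in P0 Emcn+, 37.5% and 39% in P0 Emcn-, 27.7% and 26.2% in BM MSC, and 28.5% to 38.2% in P1 to P3. Corrected for length and averaged over the 15 libraries, the order of levels in CPM per kb with copies added was mt-Co1 (12216), mt-Atp6 (8078), mt-Co2 (7184), mt-Co3 (4693), mt-Cytb (4627), mt-Nd4 (3830) and mt-Nd1 (3476). mt-Nd2 (2408), mt-Atp8 (2384), mt-Nd5 (2332), mt-Nd4l (2112), mt-Nd3 (965), mt-Rnr2 (881), mt-Nd6 (727) and mt-Rnr1 (398) followed on the same scale. The first place went to mt-Co1 in all P0, lung and passaged libraries, and to mt-Atp6 in both BM MSC libraries, where mt-Atp6 was at 7183 and 8830 CPM per kb and mt-Co1 at 7127 and 8143. mt-Rnr1 (12S rRNA) was last in every library, and without the copies mt-Nd3 took that place on average. Neighbours in this order often changed places between libraries, and the order holds for these averages only.

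The comparison of P0 Emcn+ with P0 Emcn- BMECs asks whether the sorted populations differ in mitochondrial transcripts. A gene was called where the edgeR quasi-likelihood test gave a Benjamini-Hochberg adjusted p below 0.05 over all genes tested and the absolute log2 fold change was above 1.5. None of the 13 mRNAs and 2 rRNAs was called in edgeR or DESeq2, and none had an unadjusted p below 0.05 in edgeR, whereas 19.2% of all tested genes were called in 1 direction or the other. Log2 fold changes of these 15 genes ran from -0.63 (mt-Nd1, a complex I subunit) to 0.34 (mt-Atp8), and 8 were above 0. With the copies added none was called either, 1 had an unadjusted p below 0.05, the lowest was -1.01 (mt-Nd3, adjusted p = 0.111) and 6 were above 0. For most mRNAs the direction was not the same in both batches, each of which held 1 library of each population. In batch d, 9 of 13 mRNAs (8 with the copies) had a higher CPM in Emcn+ than in Emcn- cells, and in batch a none did on either scale. mt-Co1, for example, was at 15597 CPM in Emcn+ and 10177 in Emcn- in batch d, and at 10699 and 11394 in batch a. Both Emcn+ libraries lay below both Emcn- libraries for 3 of the 13 mRNAs, and for 5 with the copies added. They lay above both for 0 on either scale. How many of all tested genes had these orders was not counted.

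The lung libraries were compared with P0 Emcn-, since by the study's account both were Emcn- cells at P0 of different organs. All 13 mRNAs and both rRNAs had a log2 fold change above 0, with a median of 0.67, but none was called in edgeR or DESeq2, where 3.83% of all tested genes were. At an unadjusted p below 0.05 in edgeR there was 1, mt-Rnr1. mt-Cytb, the only mitochondrial subunit of complex III, was at 5112 and 3686 CPM in lung, above its 2915 and 3172 CPM in the marrow cells (log2 fold change 0.60, SE 0.305, adjusted p = 0.344). For 7 of the 13 mRNAs, and 6 with the copies added, both lung libraries lay above both P0 Emcn- libraries. The share of all tested genes with this order was not counted, so these counts are descriptions only. With the copies, log2 fold changes of the mRNAs ran from 0.47 to 0.89 and none was called. The lung library of batch d was the higher one for every mRNA, and without the lung library of batch a mt-Rnr1 was called (log2 fold change 1.78, adjusted p = 0.0324). mt-Rnr1 was at 617 and 202 CPM in lung and 156 and 225 CPM in P0 Emcn-. With the replicate block, mt-Nd6 had an adjusted p below 0.05 (0.78, adjusted p = 0.0487) but stayed under the fold limit.

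P1 was compared with P0 Emcn- to ask what changes at the first passage of Emcn- BMECs. Every mRNA and both rRNAs had a higher fitted level in P1, with a median log2 fold change of 1.44 for the mRNAs against 0.02 over all genes tested. Of the 15 genes, 5 were called as higher, where 5.77% of all tested genes were. At the adjusted p alone, 8 of the 15 were higher against 10% of all genes. With the replicate block these counts were 6 and 13, and with the copies added 6 and 9. The calls depended on few libraries. Of the 15, 1 was called when only these 2 conditions were fitted, 1 without P0 Emcn- replicate 1, 2 without P0 Emcn- replicate 2 and 1 without P1 replicate 1. DESeq2 called 6, and 2 with ashr. The count was 3 without any single one of BM MSC replicate 1, BM MSC replicate 2, P3 replicate 1 and P3 replicate 2. These 2 conditions shared no batch, so passage and batch cannot be told apart here.

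The complex I subunits held 4 of those 5 calls. Complex I (NADH dehydrogenase) takes electrons from NADH, and 7 of its core membrane subunits are mitochondrial. mt-Nd5 was at 7795 and 5443 CPM in P1 and at 1842 and 1543 CPM in P0 Emcn-, the largest change of an mRNA (log2 fold change 2.13, SE 0.384, adjusted p = 0.00573). mt-Nd2 was at 4758 and 2758 CPM in P1, against 1041 and 1320 CPM before passage (1.83, SE 0.472, adjusted p = 0.0266). Neither gene has a near-identical copy, and the P1 libraries lay above both P0 Emcn- libraries. mt-Nd4 had 6501 and 5097 CPM in P1 and 1973 and 2243 CPM in P0 Emcn- as deposited (1.62, SE 0.364, adjusted p = 0.0158). With its copy it had 9355 and 6019 CPM against 1973 and 2244 CPM (2.03, adjusted p = 0.0145). mt-Nd6 was at 601 and 482 CPM in P1 and 241 and 152 CPM in P0 Emcn- (1.62, SE 0.494, adjusted p = 0.0482). The other 3 did not pass. mt-Nd1 had a log2 fold change of 1.48 (SE 0.469, adjusted p = 0.054), mt-Nd4l 1.03 (SE 0.367, adjusted p = 0.0777) and mt-Nd3 1.19 (SE 0.649, adjusted p = 0.22). With their copies mt-Nd4l had 1.08 (adjusted p = 0.0625) and mt-Nd3 1.36 (adjusted p = 0.0623).

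The other complexes changed by less than the fold limit or did not pass the test. mt-Cytb of complex III was at 8033 and 6599 CPM in P1 and 2915 and 3172 CPM in P0 Emcn- (1.42 as a log2 fold change, SE 0.31, adjusted p = 0.0137). In complex IV, mt-Co1 was at 24616 and 21644 CPM against 10177 and 11394 CPM (1.26, SE 0.347, adjusted p = 0.0343), and mt-Co2 had a log2 fold change of 1.44 (SE 0.383, adjusted p = 0.0304). With their copies these were 1.41 (adjusted p = 0.0194) and 1.37 (adjusted p = 0.0331). Both P1 libraries lay above both P0 Emcn- libraries for these genes. mt-Co3 had a log2 fold change of 1.89 (SE 0.61, adjusted p = 0.0576) as deposited, 1.28 (adjusted p = 0.0523) with its copy, and was called with the replicate block (1.74, adjusted p = 0.0236). In complex V (ATP synthase), mt-Atp6 had 1.18 (SE 0.647, adjusted p = 0.225) as deposited and was called with its copy (1.89, adjusted p = 0.0275). mt-Atp8 was at 934 and 260 CPM in P1 and 242 and 265 CPM in P0 Emcn-, so that the P1 library of batch c lay within the P0 range.

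Of the rRNAs only mt-Rnr1 was called, and the difference between both rRNAs was not tested. mt-Rnr1 was at 557 and 534 CPM in P1 and at 156 and 225 CPM in P0 Emcn- (1.68 as a log2 fold change, SE 0.477, adjusted p = 0.0387). mt-Rnr2 (16S rRNA) was at 1816 and 1523 CPM in P1 and 709 and 1454 CPM in P0 Emcn-, with the lowest fold change of the 15 genes (0.79, SE 0.437, adjusted p = 0.23).

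**Figure D3:**
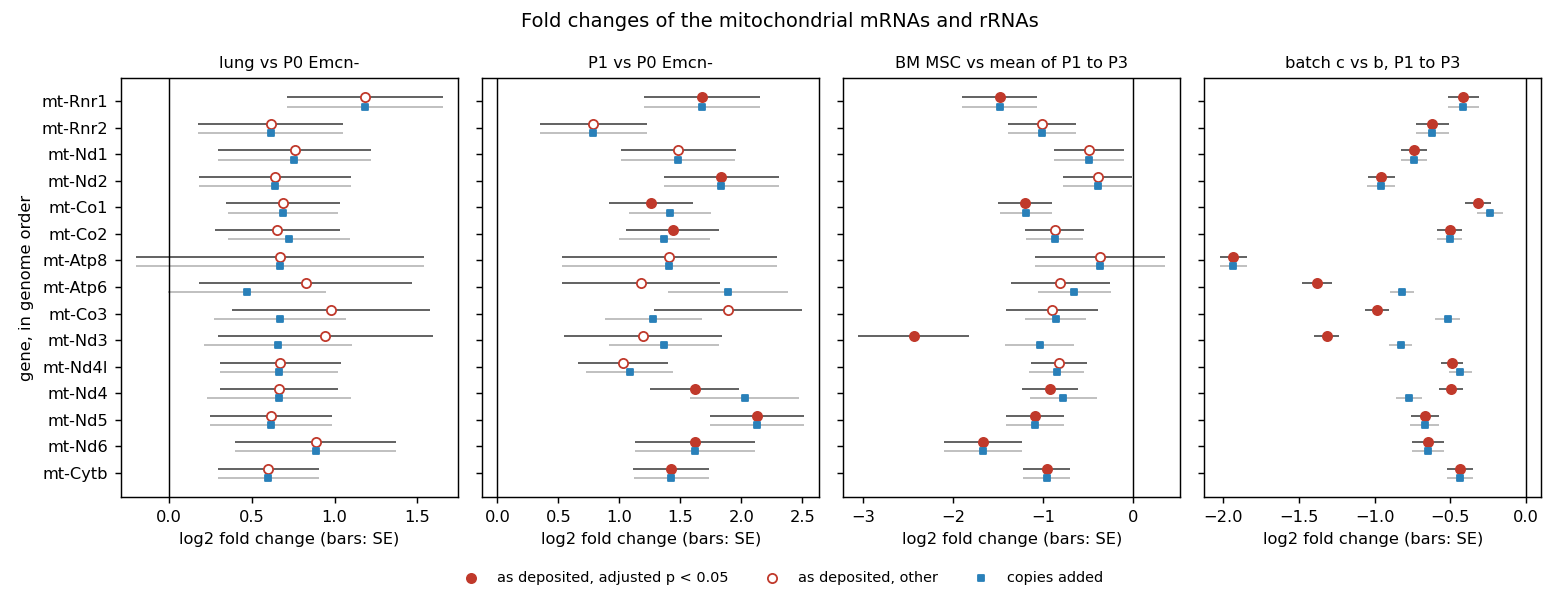
Log2 fold changes (horizontal axis, bars show SE) of the 13 mRNAs and 2 rRNAs in genome order for 4 comparisons, from edgeR fits of the counts as deposited (red, filled where the adjusted p is below 0.05) and with the nuclear copies added (blue). All 15 genes lie above 0 in P1 against P0 Emcn-, and all lie below 0 in batch c against batch b, where mt-Atp8 stands lowest at -1.93.

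Mitochondrial tRNAs showed the widest differences but rest on few counts. All 22 had under 10 counts in at least 1 library, and 10 passed the filter on low counts, mostly through the passaged libraries. Genes that pass in this way had to be higher there, so no test against P0 Emcn- is given for them, and those named here were chosen after their values were seen. The 22 genes held 5232 counts over the 15 libraries, of which mt-Tw and mt-Tl1 held 66.3%. mt-Tw had 0 to 5 counts in each P0 and lung library, 41 and 37 in BM MSC and 199 to 436 in each passaged library. Its levels were 7.61 and 10.2 CPM in P1 and 0.0252 and 0.101 CPM in P0 Emcn-. With only 2 counts in P0 Emcn-, the ratio of pooled levels was 218 with an exact counting interval of 59.9 to 1801. For mt-Tm, with 84 counts in P1 and 3 in P0 Emcn-, it was 22.6 with an interval of 7.47 to 111.8. These intervals, and the limits given below for counts of 0, cover counting error alone. They leave out the larger spread between libraries and the batches, which the 2 conditions did not share, and are no test. mt-Tl1 was the only tRNA with counts in every library, at 4 to 69 in P0 and lung libraries and 100 to 320 in passaged libraries.

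For 13 tRNA genes, all 6 P0 and lung libraries had 0 counts and another library had some. mt-Tg (glycine) had 103 and 41 counts in P1 and 0 in both P0 Emcn- libraries. Its pooled P1 level was 38.7 times the level of 3 counts over P0 Emcn-, the limit used for 0. mt-Ti (isoleucine), with 67 and 25 counts in P1, had a ratio of 24.8 by this limit. mt-Th (histidine), with 12 and 12, had 6.46. These ratios take the P1 counts as exact and are no lower limits of the fold difference. mt-Ts1 (serine) is not among the 13, since it had 6 counts over P0 Emcn+ and lung. It had 0 in both P0 Emcn- libraries and 42 and 11 in P1, which by the same limit gave a ratio of 14.3.

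**Figure D4:**
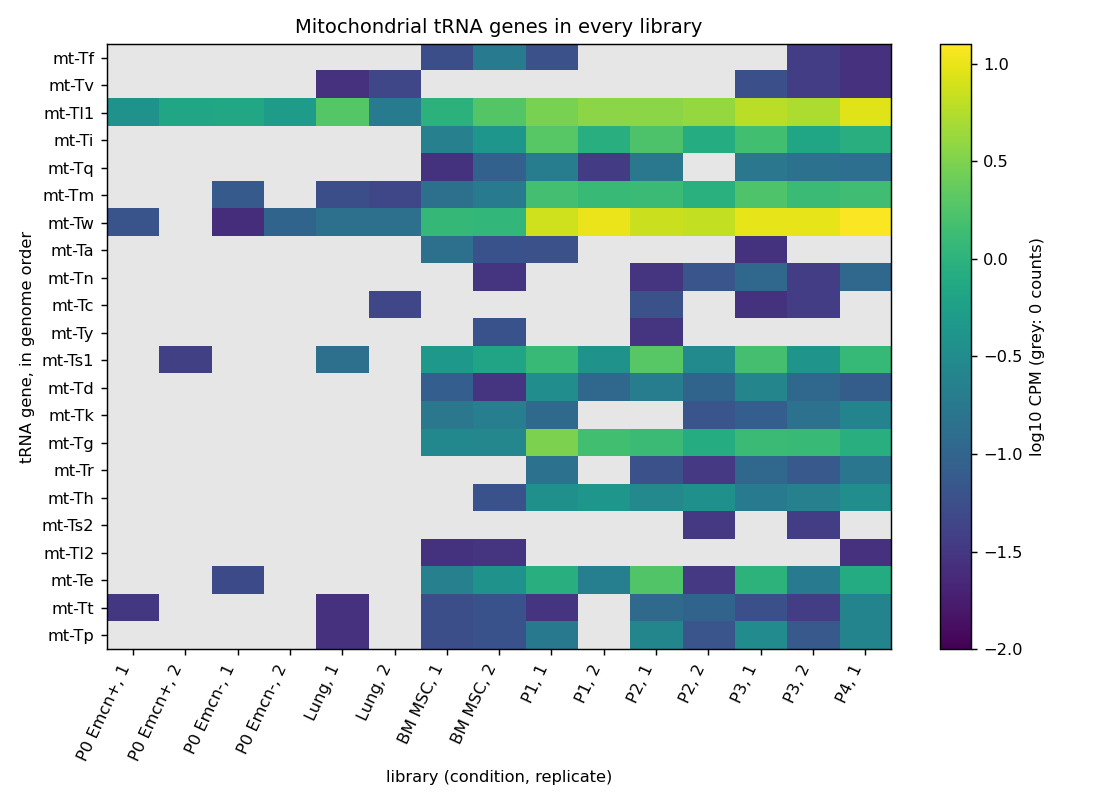
Level of each mitochondrial tRNA gene (rows, genome order) in each library (columns, by condition and replicate) as log10 CPM by colour, with grey for 0 counts. mt-Tl1 has counts in all 15 libraries, while 13 genes are grey in all 6 P0 and lung libraries and coloured in at least 1 BM MSC or passaged library.

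BM MSC were set against P0 Emcn- as well, also across batches and culture media. None of the 15 mRNAs and rRNAs passed both limits in the edgeR fit of all libraries, where 11.3% of all tested genes were called as higher. The 4 calls among the members in that fit were tRNAs, which had passed the filter through other libraries and are not read further. Other settings called some of the 15. The count was 1 in DESeq2, 1 when only these conditions were fitted and 2 with the replicate block. It was 0 in DESeq2 with ashr and with the copies added. Of the 13 mRNAs, 11 were above 0, and 13 with the copies added. mt-Nd2 was the only mRNA higher at the adjusted p alone, at 2497 and 3112 CPM in BM MSC and 1041 and 1320 CPM in P0 Emcn- (1.34 as a log2 fold change, SE 0.465, adjusted p = 0.0473), where 19% of all tested genes were. With its copy added, mt-Nd4 passed as well (1.30, adjusted p = 0.0416). This comparison and those of P0 Emcn+, lung and P1 share the P0 Emcn- libraries.

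BM MSC against the mean of P1, P2 and P3 compared cultured stromal cells with passaged Emcn- cells, partly within batch c. Culture medium, Cre transgene and passage differed along with cell type, also within batch c, and their parts cannot be told apart. All 13 mRNAs and both rRNAs had lower fitted levels in BM MSC, with a median log2 fold change of -0.92 for the 15. Of these, 2 were called as lower (mt-Nd3 and mt-Nd6) and 7 at the adjusted p alone, where 5.81% and 14.6% of all tested genes were. mt-Nd6 was at 179 and 191 CPM in BM MSC and at 399 to 797 CPM in P1 to P3 (-1.67, SE 0.437, adjusted p = 0.016). mt-Co1 (-1.21, SE 0.301, adjusted p = 0.0127), mt-Cytb (-0.96, SE 0.264, adjusted p = 0.0194), mt-Nd5 (-1.09, SE 0.323, adjusted p = 0.0265), mt-Nd4 (-0.92, adjusted p = 0.0433) and mt-Rnr1 (-1.48, adjusted p = 0.0217) were lower at the adjusted p alone. The call of mt-Nd3 (-2.44, SE 0.615, adjusted p = 0.0133) was lost with its copy added (-1.04, adjusted p = 0.0642), and mt-Nd4 no longer passed (-0.77, adjusted p = 0.139), while mt-Co1 did (-1.19, adjusted p = 0.0111). These left 1 call and 5 genes at the adjusted p alone. Without BM MSC replicate 1, and likewise without replicate 2, none of the 15 was called, and without P2 replicate 1 there was 1.

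Within batch c alone, the genes differed among themselves. Its 3 passaged libraries are serial passages, possibly of a single culture line, and the fit treats them as independent. mt-Nd3 was the only mRNA called, where 6.99% of all tested genes were called as lower (log2 fold change -1.71, SE 0.343, adjusted p = 0.0137), and not with its copy added (-0.57, adjusted p = 0.0219). mt-Nd6 (log2 fold change -1.31, SE 0.12, adjusted p = 0.00177), mt-Rnr1 (-1.26, SE 0.123, adjusted p = 0.00201), mt-Rnr2 (-0.67, adjusted p = 0.0224), mt-Nd4l (-0.56, adjusted p = 0.0216), mt-Nd5 (-0.72, adjusted p = 0.0472) and mt-Co1 (-1.04, adjusted p = 0.0453) were lower in BM MSC than in P1 to P3 of the same batch at the adjusted p alone. That made 7 of 15 with mt-Nd3, where 20.6% of all tested genes were. With their copies mt-Nd4l had -0.62 (adjusted p = 0.0171) and mt-Co1 -1.07 (adjusted p = 0.0485). mt-Atp8 turned from -0.37 over both batches to 0.90 within batch c (SE 0.102, adjusted p = 0.00291). It was at 471 and 538 CPM in BM MSC and 255 to 260 CPM in the 3 passaged libraries of batch c. It alone of the 15 was higher at the adjusted p, where 20.4% of all tested genes were. mt-Nd2 also turned to above 0 (0.16) without passing the test, and mt-Atp6 did so as deposited (0.04) but not with its copy added (-0.19). With the copies added, both BM MSC libraries lay below all 3 passaged libraries of batch c for 9 of the 13 mRNAs. How many of all tested genes had this order was not counted. Of the tRNAs, mt-Tw was at 1.15 and 1.13 CPM in BM MSC and 6.60 to 10.2 CPM in P1 to P3 of batch c (-3.01, SE 0.26, adjusted p = 0.00151).

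No member was called between P3 and P1 in edgeR or DESeq2, none had an unadjusted p below 0.05 in edgeR, and 0.222% of all tested genes were called. Of the 13 mRNAs, 12 had a log2 fold change below 0, with a median of -0.11. The largest was -1.36 for mt-Nd3 (SE 0.65, adjusted p = 0.402), and with copies added the 13 values ran from -0.34 to -0.02. The total share was 7.00% and 5.16% in P3 and 8.00% and 5.99% in P1, so that the groups overlapped.

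Within P1 to P3, batch c lay below batch b for every mRNA in all 3 passages, with or without the copies added. That order was not counted over all tested genes. The mean total share was 5.53% ± 0.425 in batch c and 8.00% ± 1.00 in batch b (SD, n = 3 each), without overlap. P1 to P3 are serial passages, so the 3 libraries of a batch may come from a single culture line, which the labels do not tell. In that case the SD, SE and p given here treat repeated samples of a line as independent. In the fit with passage as a term, all 15 mRNAs and rRNAs were lower in batch c at the adjusted p alone, where 10.4% of all tested genes were. Past both limits, 1 of the 15 was lower, where 0.623% of all tested genes were called as lower and 0.875% as higher. That gene was mt-Atp8, at 934, 1118 and 817 CPM in batch b and 260, 255 and 257 CPM in batch c of P1, P2 and P3 (log2 fold change -1.93, SE 0.092, adjusted p = 0.000175). The 3 libraries of each batch lay close together and far from those of the other batch. The 2 further calls were tRNAs, mt-Ts1 and mt-Te, with few counts in batch c, and the count of 3 fell to 1, mt-Atp8, without P2 replicate 1 (-1.82, adjusted p = 0.00204) and likewise without P2 replicate 2 (-1.81, adjusted p = 0.00218).

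The batch difference was unequal among the mRNAs. As deposited, log2 fold changes ran from -1.93 for mt-Atp8 through -1.38 for mt-Atp6 (SE 0.0989), -1.32 for mt-Nd3 (SE 0.0815), -0.98 for mt-Co3 and -0.96 for mt-Nd2 to -0.32 for mt-Co1 (SE 0.0834). With the copies added, mt-Atp6 was at -0.82 (SE 0.082), mt-Nd3 at -0.83, mt-Co3 at -0.52, mt-Nd4 at -0.77 in place of -0.49, and mt-Co1 at -0.24 (adjusted p = 0.0965), which no longer passed. The nearest to mt-Atp8 was then mt-Nd2 at -0.96. mt-Atp8 had the lowest GC content of the 13 mRNAs (31.9%), and mt-Co1 (39.9%) and mt-Nd4l (41.1%) the highest. Across the 13 genes, GC content and log2 fold change had a Spearman's rho of 0.87 with the copies added and 0.66 as deposited, and of 0.83 with the copies added but without mt-Atp8. Length had 0.27 and 0.49. In the other 6 comparisons, the rho with GC content lay between -0.34 and 0.30 with the copies added. These are descriptions across genes that share the same libraries, overlap in part and are not independent. By the study's methods the sequencing instrument differed between batches of replicates, and which instrument served batches b and c is not told there. Whether GC content or the instrument plays a part was not tested.

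**Figure D5:**
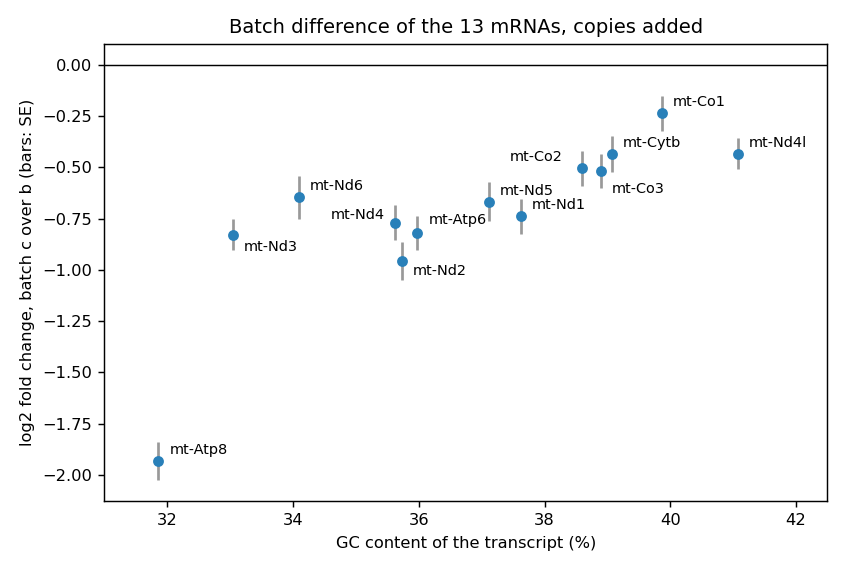
Log2 fold change of batch c over batch b within P1 to P3 (vertical axis, copies added, bars show SE) against the GC content of each transcript (%, horizontal axis) for the 13 mRNAs. mt-Atp8, at 31.9% GC, lies at -1.93, apart from the other 12, which run from -0.96 to -0.24.

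Summed by strand, the tRNAs differed unequally between the batches, a pattern chosen after its values were seen. Each sum rests mostly on few genes. In batch b of P1 to P3, mt-Tw and mt-Tl1 held 845 and 437 of 1892 plus-strand counts, and mt-Ts1 and mt-Te 164 and 128 of 349 minus-strand counts. The 14 plus-strand tRNA genes summed to 15.7 to 21 CPM in batch b and 14 to 18.8 CPM in batch c of P1 to P3, a ratio of 0.889 to 0.985 within passages. The 8 minus-strand genes summed to 2.59 to 4.32 CPM in batch b and 0.464 to 0.888 CPM in batch c, a ratio of 0.107 to 0.276 without overlap. mt-Te (glutamate) had 30, 62 and 36 counts in batch b and 6, 1 and 5 in batch c. mt-Ts1 had 42, 67 and 55 against 11, 9 and 11. Both genes passed the filter on low counts mainly through batch b, so no test is given for them and their calls are not read further. On the plus strand, mt-Tw had a log2 fold change of 0.05 (SE 0.124, adjusted p = 0.806) and mt-Tl1 0.02 (SE 0.147, adjusted p = 0.949). The other plus-strand tRNAs in this fit did not all follow them. Values were -1.15 for mt-Ti (SE 0.221), -0.67 for mt-Tg (SE 0.256), -0.45 for mt-Tm (SE 0.213) and 0.21 for mt-Th (SE 0.354). The strand pattern thus holds for the sums and not for every gene. The minus-strand mRNA mt-Nd6 had -0.65 (SE 0.105, adjusted p = 0.0103), within the range of the plus-strand mRNAs. Whether the counting used strand is not given in the sources used here, so reads from either strand of these loci cannot be told apart.

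The nuclear genes of the same pathway were set beside these values. Of 78 nuclear subunits of complexes I to V, none was called as higher and 3 as lower in P1 against P0 Emcn-, where 5.77% and 3.07% of all tested genes were, with a median log2 fold change of -0.13. At the adjusted p alone 1 was higher and 8 lower, where 10% and 7.43% of all tested genes were. In batch c against batch b none was called, 11 were higher and none lower at the adjusted p alone (8.66% and 10.4% of all tested genes), and the median was 0.14 while all 13 mitochondrial mRNAs were lower. Their summed level was 5591 CPM ± 1048 (SD, n = 2) in P0 Emcn- and 4547 CPM ± 677 (SD, n = 2) in P1. The ratio of mitochondrial to nuclear subunit mRNA had copies added to the mitochondrial genes only. It was 5.56 ± 1.54 in P0 Emcn-, 18 ± 5.92 in P1 and 10.2 ± 1.16 in BM MSC (SD, n = 2 each). In batches b and c of P1 to P3 it was 21.9 ± 3.92 and 14 ± 1.12 (SD, n = 3 each). It was 4.47 to 8.77 over the P0 and lung libraries and 12.9 to 25.7 over P1 to P4, without overlap. Pseudogenes of the nuclear subunits were left out of the nuclear sum. Those of Atp5g2, Cox7c and Atp5l had a higher CPM in P1 than in P0 Emcn-, which raises the ratio in P1. Their part over all 78 subunits was not counted.

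The 3 nuclear subunits called as lower in P1 against P0 Emcn- were Cox7c of complex IV (log2 fold change -3.05, adjusted p = 0.00589) and Atp5g2 (-5.63, adjusted p = 0.000136) and Atp5l (-1.91, adjusted p = 0.00064) of ATP synthase. Each shares sequence with pseudogenes. Atp5g2 was at 105 CPM ± 26.4 in P0 Emcn- and 1.93 CPM ± 0.715 in P1, and the genes with at least 50% of their 31-base words in it at 4.11 CPM ± 4.32 and 86.1 CPM ± 12.6 (SD, n = 2 each). Gene and copies together were at 109.6 and 88 CPM for Atp5g2, at 78.7 and 67.3 CPM for Cox7c, and at 90.8 and 94.1 CPM for Atp5l. In P0 Emcn+ against P0 Emcn-, the complex IV subunit Ndufa4 was the only subunit called, where 11.4% of all tested genes were called as lower (-1.99, SE 0.326, adjusted p = 0.00102), at 17.6 CPM ± 4.21 and 71.4 CPM ± 14.7 (SD, n = 2 each).

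Of the genes that act on mitochondrial RNA, none of 23 for transcription, 28 for RNA processing and turnover, and 76 for the mitochondrial ribosome was called in P1 against P0 Emcn-, with medians of 0.07, 0.02 and -0.06 against 0.02 for all genes. At the adjusted p alone, 2, 0 and 3 were higher and 2, 3 and 2 lower, where 10% and 7.43% of all tested genes were. Tfam, which packages mitochondrial DNA and starts transcription, was at 28.3 CPM ± 0.7 in P0 Emcn- and 26.3 CPM ± 1.61 in P1 (SD, n = 2 each; log2 fold change 0.05, adjusted p = 0.822). The CPM is lower and the fitted change above 0 because the fit used TMM factors. Polrmt, the mitochondrial RNA polymerase, was at 24.6 CPM ± 1.84 and 15 CPM ± 1.04 (-0.55, adjusted p = 0.0437). Tfam, Polrmt and Ppargc1a were named after their values were seen. Ppargc1a, the biogenesis coactivator, was at 0.32 CPM ± 0.094 in P0 Emcn+, 6.37 CPM ± 0.399 in P0 Emcn-, 12.9 CPM ± 1.44 in P1 and 1.1 CPM ± 0.249 in BM MSC (SD, n = 2 each). It was lower in P0 Emcn+ than in P0 Emcn- (-4.28, adjusted p = 0.00045) and lower in BM MSC than in P1 to P3 (-3, adjusted p = 0.00154), whereas P1 against P0 Emcn- had 1.17 (adjusted p = 0.127). Of the 17 biogenesis regulators, 1 was higher and 3 lower in P0 Emcn+ against P0 Emcn-, where 7.79% and 11.4% of all tested genes were. Gabpb1, a subunit of nuclear respiratory factor GABP, was the higher one, at 49.7 CPM ± 1.19 against 17.7 CPM ± 0.979 (SD, n = 2 each; 1.52, adjusted p = 3.24e-05). In BM MSC against P1 to P3, 3 of them were lower, where 5.81% of all tested genes were, among them Pparg (-1.80, adjusted p = 0.0015).

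Sums of other RNA classes and of macrophage markers were set beside the mitochondrial transcripts. The 5 nuclear retained RNAs summed to 1880 to 7398 CPM in P0 and lung libraries, 1405 and 1348 CPM in BM MSC and 1917 to 2467 CPM in P1 to P4. The 8 non-polyadenylated RNAs found of 12 listed summed to 3.00 to 34.7 CPM, 1.38 and 2.01 CPM, and 1.81 to 4.38 CPM. Macrophage marker sums within the passaged cells were 84.3 and 259 CPM in P1, 42.7 and 42.1 CPM in P2 and 17.6 and 12.1 CPM in P3. Their part in the mitochondrial levels was not tested.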

How the data were processed

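Bulk RNA-seq of 15 mouse libraries was analysed. Total RNA (TRIzol, integrity number above 7) was made into libraries with the KAPA RNA HyperPrep kit and sequenced on 2 kinds of Illumina instrument. The study's methods set the instrument by batch of biological replicates and do not tie it to batches a to d of the labels. The authors mapped reads to GRCm38 with STAR, estimated abundance with Salmon in the nf-core pipeline, summed it per gene with tximport, and deposited whole-number counts for 44674 genes (8 without a symbol), not normalized. The rounding step is not given in the sources used here. Positions and sequences come from GENCODE M21 (44118 identifiers matched). Nuclear copies were those with over 90% of their 31-base words in a mitochondrial gene.

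Counts were tested in R 4.3.3 with edgeR 4.0.16 (TMM, filterByExpr with minimum count 10 and total 15, quasi-likelihood, Benjamini-Hochberg over all genes). The fit of all 15 libraries had 1 coefficient per condition (19401 genes, 25 members, 7 residual degrees of freedom), and that of batch had passage and batch over the 6 libraries of P1 to P3 (15881 genes). The test was tried first on simulated counts. A count of 0 was bounded by 3 counts, 0.0755 to 0.303 CPM, and intervals cover counting error only. Named were all mRNAs and rRNAs, and of each nuclear list up to 3 called genes, by smallest adjusted p, with 10 CPM or more throughout the higher group. The members and lists were chosen with earlier results of these data known.

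By the labels, same-numbered libraries share a batch among the P0 and lung conditions and again among P1 to P3 (correlations of deviations 0.138 to 0.207 and 0.355 to 0.456), and the replicate block used these batches. Alternatives were DESeq2 1.42.0 with and without ashr 2.2.63, RLE factors, scaling without mitochondrial genes, other filters, no fold limit, only the compared groups, only batch c, no passage term and each library left out. Adding the copies, with and without a limit to batch c, and P1 to P3 as 1 group were chosen after seeing the data.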

Additional observations from a re-analysis of the deposited data

How the results depend on the processing

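Over the counts of calls and the differences in share, 197 alternative values stayed within 1.5 times the count or within the spread between replicates, 14 were lower, 4 higher and 1 moved beyond the spread. Over the values of single genes, 921 alternatives left the call as it was, 112 lost it and 4 gained one. No called value changed sign. 2 differences in share, neither beyond the replicate spread, did so with a library left out: P3 against P1 ran from -1.92 to 0.0848 percentage points, and P0 Emcn+ against P0 Emcn- from -0.419 to 0.584. The count of members called in BM MSC against P0 Emcn- was 4, and 7 with the replicate block. The matching difference in share was 0.879 percentage points, and 1.34 with the copies added. These counts include tRNAs that passed the filter through the libraries where they are high, and the counts over mRNAs and rRNAs alone moved more in places. In P1 against P0 Emcn- the count of 12 was 6 when only the compared groups were fitted, and the 5 mRNAs and rRNAs among them came to 1. In BM MSC against P1 to P3 the count of 7 was 4 with at least 50 counts in 2 libraries, 4 in DESeq2 with ashr and 12 with no fold limit. In batch c against batch b the count of 3 was 1 in DESeq2 with ashr and 18 with no fold limit. With each library left out in turn, these counts ran from 0 to 1 for lung against P0 Emcn- (1 without lung replicate 2), from 1 to 5 for BM MSC against P0 Emcn- (1 without P0 Emcn- replicate 1, 2 without BM MSC replicate 2), and from 4 to 13 for P1 against P0 Emcn- (4 without P0 Emcn- replicate 1, 5 without P1 replicate 1, 7 without P0 Emcn- replicate 2). They ran from 2 to 8 for BM MSC against P1 to P3 (2 and 3 without BM MSC replicate 1 or 2, 4 without P2 replicate 1) and from 1 to 3 for the batches (1 without P2 replicate 1 or 2). The cause of these changes was not tested, apart from the fewer libraries fitted.

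In P1 against P0 Emcn-, mt-Nd6 lost its call in 13 of 25 alternatives, mt-Rnr1 in 9, mt-Nd2 and mt-Nd4 in 4 each and mt-Nd5 in 1. The replicate block changed counts of calls by over 1.5 times only in BM MSC against P0 Emcn-. The tRNAs are limited by depth, with 168 counts over the 6 P0 and lung libraries.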

Other observations

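Another pseudogene, Gm13340, was set against mt-Co1 after its values were seen, with no test. It had 53.1 to 153 counts for each 1000000 counts on mt-Co1 in P0 and lung libraries, 582 to 614 in BM MSC, 527 to 587 in batch b of P1 to P3 and 938 to 952 in batch c.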
